A study of Gallus gallus with 16 samples.

Results

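NFE2L2 and 5 antioxidant enzyme genes, TXNRD1, TALDO1, ME1, CAT and SOD1, were followed by RNA-seq over all treatment groups of an experiment on procyanidin B1 (PB1) in chicken HD11 cells. They were chosen by gene name and curated RefSeq accession, with earlier results of these data known. They are 6 of the 6492 transcripts in the deposited table, of which 1697 could be given a gene symbol. HD11 is a virus-transformed chicken line whose samples are labelled macrophage-like. PB1 is a plant polyphenol made of a pair of flavan-3-ol units, and lipopolysaccharide (LPS) is a bacterial cell wall component that activates macrophages. The groups were LPS + PB1 (both agents), LPS alone, PB1 alone and CTR (neither agent, buffer only), with 4 libraries in each and 16 in all by the labels. The written methods give fewer RNA-seq replicates per group than these 4 libraries. LPS was given at 100 ng/mL, for 6 h by the sample labels and for 12 h by the written methods, which give, for the parallel assays, PB1 at 100 µg/mL added 12 h before LPS. The labelled protocol, which is the same text for every library, also has the cells seeded in medium with 100 µM of an agent abbreviated SeMC, so all 4 groups, CTR included, may have shared it. All groups are the same transformed line in culture, and nothing in the labels says whether the 4 libraries of a group came from separate cultures, so the p-values below measure the spread between these libraries only.

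NFE2L2, also called NRF2, is the transcription factor that switches on antioxidant and detoxifying genes by binding antioxidant response elements together with small MAF proteins. In resting cells its protein is held and marked for destruction by KEAP1, so its activity is set largely at the protein level and mRNA does not measure it. The 5 enzymes cover successive jobs of the same defence. SOD1 turns superoxide into hydrogen peroxide, CAT breaks hydrogen peroxide down, TXNRD1 keeps thioredoxin reduced at the cost of NADPH, and TALDO1 and ME1 act in the pathways that feed NADPH. In mouse and human cells TXNRD1, TALDO1 and ME1 are known NRF2 targets.

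The label macrophage-like was checked against marker genes. A gene counts as measured here where an accession of the table could be given its symbol, which held for 0 of 4790 predicted accessions. Of 19 macrophage markers described here, 3 were measured, and CYBB, the phagocyte oxidase subunit, had 0 reads in every library. MRC1 had at most 3 reads and FCER1G at most 4, and the 3 together had 2 to 5 reads in LPS + PB1, 0 to 3 in LPS, 0 to 2 in PB1 and 0 to 4 in CTR. Of 18 fibroblast and mesenchymal markers, 5 were measured (COL1A2, COL3A1, LUM, DCN and VIM), and COL1A2 and VIM took ranks 1 and 2 of the 6492 transcripts by signal, which is not scaled for length. The 3 macrophage markers described here were thus at or near 0, while other listed markers may be in the table without a symbol. The libraries are called HD11 here by their label, and these 3 genes do not settle what the cells are. The summed signal of the 5 mesenchymal markers was 53330 to 71120 in LPS + PB1, 62260 to 81980 in LPS, 51270 to 55210 in PB1 and 75360 to 89670 in CTR, and its part in the results below was not tested. The members of this sum did not move together: COL1A2 had 16020 to 17200 in PB1 against 40170 to 49540 in CTR, while VIM had 27950 to 31290 in PB1 against 23070 to 23970 in CTR. In RNA from a whole culture, fewer cells of a type and less RNA per cell cannot be told apart. Of 11 epithelial markers 4 were measured, with at most 73 reads summed in a library, and of 11 lymphocyte markers 1, with at most 4 reads. Of 7 erythroid markers 2 were measured, and HBA1, a globin of red cells, was uneven within groups. Its normalized signal was 73.9, 302 and 91.2 in LPS + PB1 replicates 2, 3 and 4, 74.9 in LPS replicate 3 and 129 in PB1 replicate 3, against at most 1.72 in the other libraries, and its part in the results was not tested.

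**Figure D1:**
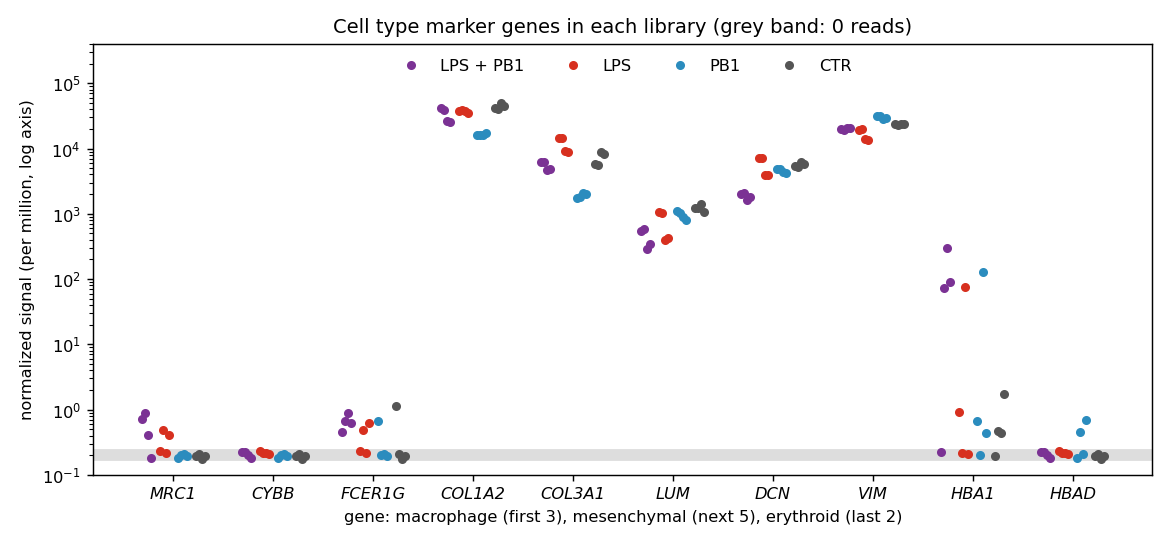
Normalized signal (log axis) of the macrophage, mesenchymal and erythroid marker genes described in the 16 libraries, 1 point per library, with LPS + PB1, LPS, PB1 and CTR from left to right within each gene. CYBB sits in the grey band of 0 reads in all libraries, COL1A2 and VIM sit highest, and HBA1 is spread between the grey band and 302 within groups.

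Replicates 1 and 2 resembled each other more than they resembled replicates 3 and 4. The chi-square per degree of freedom between 2 libraries of a group was 2.8 and 2.86 within the pairs of LPS and 35.6 to 38.3 between them. In LPS + PB1 it was 3.7 and 6.82 within the pairs and 60 to 64.4 between them, and in CTR it was 1.17 and 4.77 against 20 to 22.8. In PB1 it was 1.49 and 5.32 against 4.62 to 12.4, so there the pairs were not fully apart. The labels do not say what sets the pairs apart, and each fold change below was therefore also computed within each pair. The deposited totals were 12543666 to 23107935 per library, which correspond to 4173989 to 4414942 reads.

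Each of the 6 genes was read in every library, and all 6 passed the filter on low values in every comparison. The level used below is the normalized signal, the deposited value per 1e+06 after correction for library composition. It is not divided by length, so levels are compared between groups and not between genes. The counting error of a level was smallest for TXNRD1, with 3217 to 12519 reads per library, and largest for ME1, with 190 to 312 reads. Between the lowest and the highest of the 16 libraries TXNRD1 differed 3.74-fold, TALDO1 2.16-fold, ME1 1.87-fold, CAT 1.52-fold, NFE2L2 1.45-fold and SOD1 1.39-fold.

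**Figure D2:**
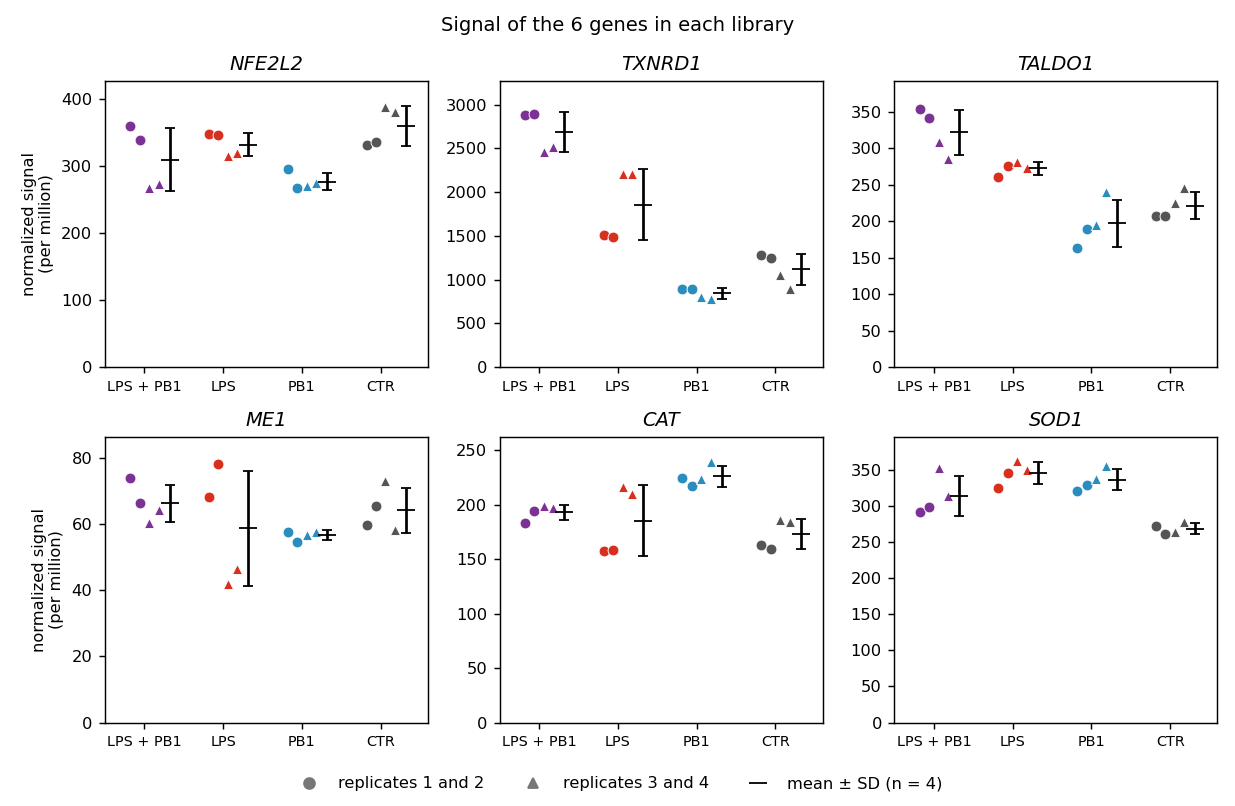
Normalized signal (axes from 0) of NFE2L2, TXNRD1, TALDO1, ME1, CAT and SOD1 in each library of LPS + PB1, LPS, PB1 and CTR. Circles are replicates 1 and 2, triangles replicates 3 and 4, and the bars give the mean ± SD (n = 4). TXNRD1 in LPS + PB1 lies between 2461 and 2893, above all other libraries, and its LPS libraries split by replicate pair.

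The transcription factor itself had its lowest mean in PB1 and its highest in CTR. NFE2L2 (NM_205117.2, chromosome 7, bases 15417979 through 15442325 of GRCg7b) is a gene with 32 accessions in the annotation, and the values are those of this accession alone. Its normalized signal was 359, 338, 267 and 272 in LPS + PB1, 347, 346, 314 and 319 in LPS, 295, 267, 269 and 275 in PB1, and 331, 335, 388 and 380 in CTR, in the order of the replicates. The PB1 libraries lay below all CTR libraries, and the groups next to each other in the order of means, CTR, LPS, LPS + PB1 and PB1, all overlapped. The means were 309 ± 46.5 in LPS + PB1, 331 ± 17.6 in LPS, 276 ± 12.9 in PB1 and 359 ± 29.5 in CTR (SD, n = 4 each). Replicates 3 and 4 were lower than replicates 1 and 2 by 0.37 on the log2 scale in LPS + PB1 (log2 difference -0.37) and higher by 0.20 in CTR. With 1142 to 1499 reads per library, counting error was 2.62 to 2.9% of the level, against a spread between libraries of 15.0% in LPS + PB1, 5.30% in LPS, 4.65% in PB1 and 8.23% in CTR.

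TXNRD1, the cytosolic thioredoxin reductase and a selenoprotein, showed the largest differences of the 6 genes. It lies on chromosome 1 (NM_001030762.4, bases 54632854 through 54659295), and a further accession of the gene was not analysed here. Library by library, the normalized signal was 2887, 2893, 2461 and 2519 in LPS + PB1, 1514, 1492, 2210 and 2208 in LPS, 896, 892, 804 and 773 in PB1, and 1276, 1245, 1054 and 888 in CTR. Every LPS + PB1 library was above every LPS library, and every LPS library was above every CTR library, while PB1 and CTR overlapped. The means were 2690 ± 232 in LPS + PB1, 1856 ± 408 in LPS, 841 ± 61.9 in PB1 and 1116 ± 181 in CTR (SD, n = 4 each). The pairs of replicates ran in opposite directions in the LPS and the other groups: replicates 3 and 4 over replicates 1 and 2 gave a log2 difference of 0.56 in LPS, against -0.21 in LPS + PB1, -0.18 in PB1 and -0.38 in CTR.

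TALDO1, the transaldolase of the non-oxidative pentose phosphate pathway, had the same order of groups as TXNRD1 with smaller steps. It lies on chromosome 5 (NM_001031177.2, bases 671272 through 676335). The replicates gave a normalized signal of 354, 341, 308 and 285 in LPS + PB1, 260, 275, 282 and 272 in LPS, 164, 189, 195 and 240 in PB1, and 208, 207, 224 and 246 in CTR. The LPS + PB1 libraries were above the LPS libraries, which were above the CTR libraries, and PB1 and CTR overlapped. The means were 322 ± 31.0 in LPS + PB1, 272 ± 8.97 in LPS, 197 ± 31.9 in PB1 and 221 ± 18.2 in CTR (SD, n = 4 each).

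ME1, the cytosolic malic enzyme, which makes NADPH from malate, did not separate LPS from the other groups. It lies on chromosome 3 (NM_204303.2, bases 77460209 through 77617692). Its normalized signal was 73.9, 66.5, 60.4 and 64.1 in LPS + PB1, 68.3, 78.2, 41.8 and 46.5 in LPS, 57.7, 54.6, 56.8 and 57.7 in PB1, and 59.7, 65.6, 73.1 and 58.3 in CTR. The LPS group held both the highest and the lowest library of the 16, split by replicate pair with a log2 difference of -0.73 between replicates 3 and 4 and replicates 1 and 2. The means were 66.3 ± 5.69 in LPS + PB1, 58.7 ± 17.4 in LPS, 56.7 ± 1.48 in PB1 and 64.2 ± 6.72 in CTR (SD, n = 4 each), and neighbouring groups in the order of means overlapped throughout. Counting error was 5.87 to 6.40% of the level, more than the 2.60% spread between the PB1 libraries.

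CAT, catalase, was highest in the PB1 group. It lies on chromosome 5 (NM_001031215.2, bases 18220734 through 18239421). In replicates 1 to 4 its normalized signal was 183, 194, 198 and 196 in LPS + PB1, 157, 158, 216 and 210 in LPS, 224, 217, 223 and 239 in PB1, and 163, 159, 186 and 184 in CTR. All PB1 libraries were above all LPS + PB1, LPS and CTR libraries, though the lowest PB1 library, at 217, was only just above the highest LPS library, at 216. The LPS libraries fell on both sides of the LPS + PB1 libraries, replicates 1 and 2 below and replicates 3 and 4 above. The means were 193 ± 7.04 in LPS + PB1, 185 ± 32.3 in LPS, 226 ± 9.23 in PB1 and 173 ± 13.9 in CTR (SD, n = 4 each).

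SOD1, the copper and zinc superoxide dismutase of the cytosol, was lowest in the CTR group. It lies on chromosome 1 (NM_205064.2, bases 104747189 through 104751949). The normalized signal per replicate was 291, 299, 353 and 314 in LPS + PB1, 325, 346, 362 and 351 in LPS, 322, 330, 338 and 356 in PB1, and 273, 261, 264 and 278 in CTR. Every treated library was above every CTR library, and the treated groups overlapped one another. The means were 314 ± 27.5 in LPS + PB1, 346 ± 15.4 in LPS, 337 ± 14.7 in PB1 and 269 ± 7.99 in CTR (SD, n = 4 each). The spread between the CTR libraries was 2.97% of the mean, against a counting error of 3.02%.

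The groups were then compared 2 at a time with limma, and a comparison is written as a quotient (LPS/CTR). A gene is said here to rise or fall where its Benjamini-Hochberg adjusted p over all transcripts tested was at most 0.05, and to be differentially expressed where its fold change was also at least 1.5. LPS, set against CTR, asks what the bacterial stimulus alone does to these genes. TXNRD1 was 1.69-fold higher after LPS, and SOD1 and TALDO1 rose 1.32-fold and 1.27-fold, while NFE2L2, ME1 and CAT did not pass. The log2 fold change of TXNRD1 was 0.76 ± 0.17 (SE, limma adjusted p = 0.00738), that of SOD1 0.40 ± 0.07 (SE, limma adjusted p = 0.00109) and that of TALDO1 0.34 ± 0.07 (SE, limma adjusted p = 0.00591). NFE2L2 had -0.07, with a 95% confidence interval of -0.23 to 0.09 (limma adjusted p = 0.469). ME1 had -0.13, with an interval of -0.54 to 0.28, and CAT 0.12, with an interval of -0.14 to 0.39. Of the 6 genes, 3 rose and 0 fell, where 31.7% of all 4514 transcripts tested passed in either direction, and 1 gene, TXNRD1, was differentially expressed, where 9.97% were so upward and 6.82% downward. The libraries of LPS and CTR did not overlap for 3 genes, TXNRD1, TALDO1 and SOD1, as for 33.8% of all transcripts. The median log2 fold change of the 6 genes was 0.23, beside 0.01 over all transcripts.

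The rise of TXNRD1 after LPS was uneven between replicates, at a log2 fold change of 0.25 within replicates 1 and 2 and 1.19 within replicates 3 and 4. It was no longer differentially expressed within replicates 1 and 2 alone, where it stayed under 1.5-fold, or when the means of the pairs were used as samples (limma adjusted p = 0.143). SOD1, at 0.33 (replicates 1 and 2) and 0.40 (replicates 3 and 4), and TALDO1, at 0.37 and 0.24, were higher in LPS in each pair, but with the means of the pairs neither passed (limma adjusted p = 0.129 and 0.209). For ME1 the pairs went opposite ways, at 0.22 and -0.57. NFE2L2 had 0.06 and -0.28. In a fit of replicates 3 and 4 alone NFE2L2 and ME1 fell, at -0.235 and -0.521 (limma adjusted p = 0.0194 and 0.00278). CAT rose in that fit, at 0.25 (limma adjusted p = 0.0228). Fits of a single pair, here and below, have 2 libraries per group, and their p-values measure only the spread within pairs. Where the values of the pairs are given below without their names, replicates 1 and 2 stand before replicates 3 and 4.

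**Figure D3:**
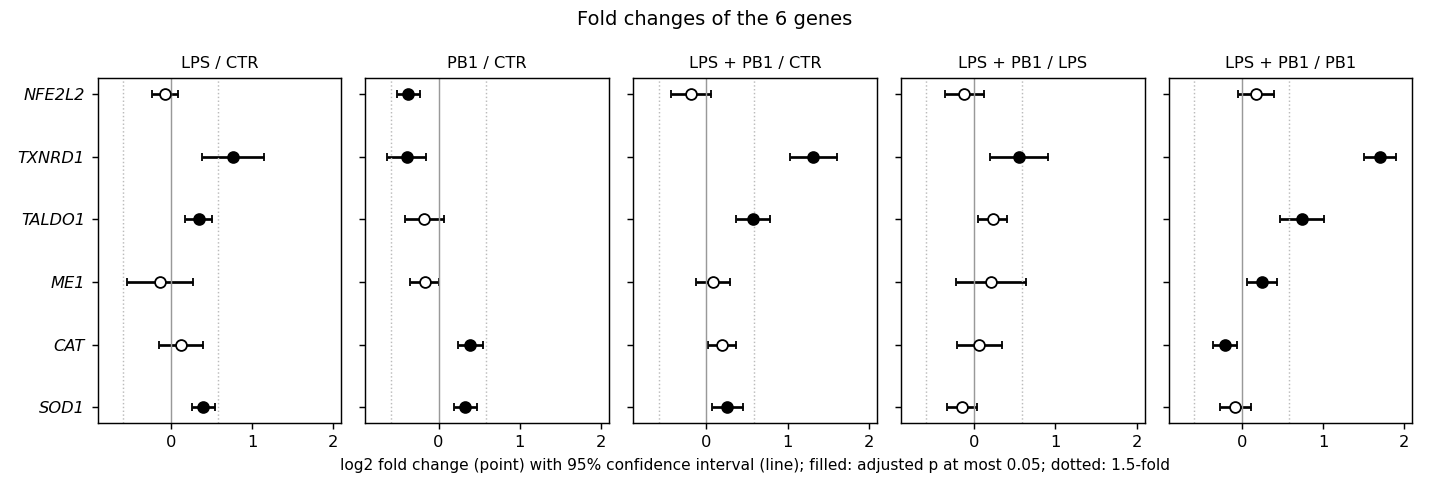
Log2 fold change of each gene (point) with its 95% confidence interval (line) in the 5 comparisons. Filled points have a limma adjusted p of at most 0.05, and dotted lines mark a 1.5-fold difference. TXNRD1 lies to the right of the dotted line in LPS/CTR, LPS + PB1/CTR and LPS + PB1/PB1, and to the left of 0 in PB1/CTR.

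PB1 alone, set against CTR, moved 4 of the 6 genes by less than 1.5-fold. CAT and SOD1 rose 1.31-fold and 1.25-fold, and NFE2L2 and TXNRD1 fell. The log2 fold changes were 0.39 for CAT (SE 0.07, limma adjusted p = 0.000634), 0.33 for SOD1 (SE 0.07, limma adjusted p = 0.00134), -0.37 for NFE2L2 (SE 0.07, limma adjusted p = 0.000714) and -0.39 for TXNRD1 (SE 0.11, limma adjusted p = 0.0119). TALDO1, at -0.17 with a 95% confidence interval of -0.42 to 0.07, and ME1, at -0.17 with an interval of -0.35 to 0.01, did not pass, and without PB1 replicate 4 TALDO1 fell by 0.28 (limma adjusted p = 0.0305). Of the 6 genes, 2 rose and 2 fell. Here 43.7% of 4485 transcripts passed in either direction, and 0 of the 6 genes were differentially expressed, where 10.5% of all transcripts were so upward and 10.4% downward. PB1 and CTR libraries did not overlap for 4 genes, NFE2L2, ME1, CAT and SOD1, as for 41.7% of all transcripts. For ME1 the margin was within counting error, at 57.7 in the highest PB1 library and 58.3 in the lowest CTR library. Each pair of replicates gave the same sign as the whole for all 6 genes. With the means of the pairs as samples, TXNRD1 and SOD1 no longer passed (limma adjusted p = 0.0959 and 0.0579). The median over the 6 genes was -0.17, beside 0.01 over all transcripts.

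Both agents together, set against CTR, gave a TXNRD1 level 2.49-fold higher and a TALDO1 level 1.49-fold higher, just under the limit of 1.5. The log2 fold change was 1.32 for TXNRD1 (SE 0.13, limma adjusted p = 5.76e-05), and the pairs gave 1.20 (replicates 1 and 2) and 1.36 (replicates 3 and 4). For TALDO1 it was 0.58 ± 0.09 (SE, limma adjusted p = 0.00134), and the pairs gave 0.74 and 0.34, and it went above 1.5-fold when LPS + PB1 replicate 4 or CTR replicate 4 was left out, at 0.63 in each case. SOD1 rose by 0.26 ± 0.08 (SE, limma adjusted p = 0.0428), but it no longer passed with LPS + PB1 replicate 3 or 4, or any of the 4 CTR replicates, left out, with limma adjusted p up to 0.115. NFE2L2 had -0.19 (95% confidence interval -0.43 to 0.06), ME1 0.08 (-0.13 to 0.30) and CAT 0.20 (0.03 to 0.37, limma adjusted p = 0.0762). For NFE2L2 the pairs differed, at 0.06 (replicates 1 and 2) and -0.51 (replicates 3 and 4), and in a fit of replicates 3 and 4 alone it fell by 0.46 (limma adjusted p = 0.00124). When the means of the pairs were the samples TXNRD1 still passed, and TALDO1 and SOD1 did not (limma adjusted p = 0.109 and 0.388). Of the 6 genes, 3 rose and 0 fell, where 30.7% of 4495 transcripts passed, and 1 was differentially expressed, where 9.17% of all transcripts were so upward and 8.52% downward. LPS + PB1 and CTR libraries did not overlap for 3 genes, TXNRD1, TALDO1 and SOD1, as for 33.2% of all transcripts. The median over the 6 genes was 0.23, beside -0.001 over all transcripts. This comparison shares its CTR libraries with the ones above.

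**Figure D4:**
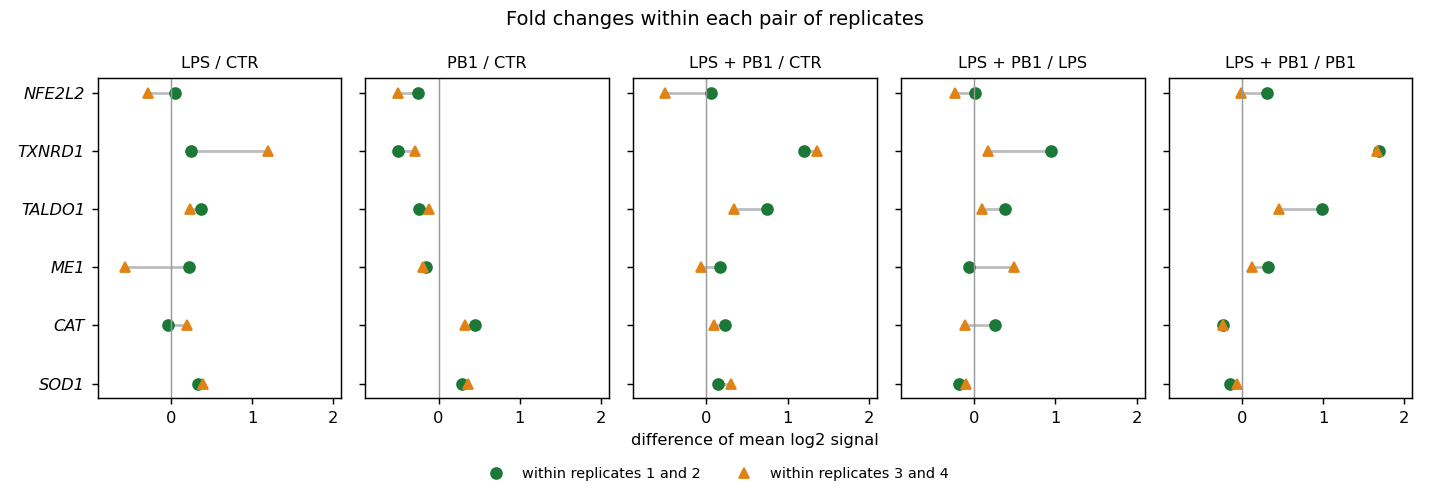
Difference of mean log2 signal within replicates 1 and 2 (circles) and within replicates 3 and 4 (triangles) for each gene in the 5 comparisons, with a grey line joining the pairs. For TXNRD1 the pairs lie at 0.25 and 1.19 in LPS/CTR and at 0.94 and 0.17 in LPS + PB1/LPS, while in LPS + PB1/PB1 they lie together at 1.69 and 1.66.

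LPS + PB1, set against LPS, asks what PB1 changes in LPS-stimulated cells. TXNRD1 was 1.46-fold higher, and it alone of the 6 genes passed on adjusted p. Its log2 fold change was 0.55 ± 0.16 (SE, limma adjusted p = 0.0258), and the pairs gave 0.94 (replicates 1 and 2) and 0.17 (replicates 3 and 4). It rested on the libraries used: without LPS replicate 3, LPS replicate 4 or LPS + PB1 replicate 3 it was differentially expressed, at 0.65, 0.64 and 0.59, and without LPS replicate 1 or 2, or LPS + PB1 replicate 1 or 2, it did not pass, with values of 0.45 to 0.53. Nor did it pass with the means of the pairs as samples (limma adjusted p = 0.276). TALDO1 had 0.23 (95% confidence interval 0.05 to 0.41, limma adjusted p = 0.0544), and it passed without LPS + PB1 replicate 4 (limma adjusted p = 0.02) and with the replicate number as a block (limma adjusted p = 0.0396), but not with the means of the pairs as samples (limma adjusted p = 0.342). NFE2L2 had -0.12, with an interval of -0.36 to 0.12 (limma adjusted p = 0.409), and the pairs gave 0.01 and -0.23. In a fit of replicates 3 and 4 alone NFE2L2 fell, at -0.229 (limma adjusted p = 0.0441). ME1 rose in that fit, at 0.50 (limma adjusted p = 0.00549), while TXNRD1 and TALDO1 did not pass (limma adjusted p = 0.105 and 0.395). With replicates 1 and 2 alone TXNRD1, TALDO1 and CAT rose, at 0.94, 0.37 and 0.26 (limma adjusted p = 7.48e-13, 0.000302 and 0.019). With all libraries SOD1 had -0.15 (-0.33 to 0.04), CAT 0.07 (-0.21 to 0.34) and ME1 0.21 (-0.22 to 0.65), and for CAT and ME1 the pairs of replicates had opposite signs. Here 32.0% of 4546 transcripts passed, against 1 of the 6 genes, and 0 of the 6 were differentially expressed, where 7.37% of all transcripts were so upward and 10.2% downward. LPS + PB1 and LPS libraries did not overlap for 2 genes, TXNRD1 and TALDO1, as for 34.8% of all transcripts. For TALDO1 the margin was within counting error, at 285.5 in the lowest LPS + PB1 library and 281.7 in the highest LPS library. The median over the 6 genes was 0.14, beside -0.01 over all transcripts.

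LPS + PB1, set against PB1, asks what LPS changes in cells that also received PB1. TXNRD1 was 3.25-fold higher and TALDO1 1.67-fold higher, and both were differentially expressed. The log2 fold change of TXNRD1 was 1.70 ± 0.09 (SE, limma adjusted p = 1.63e-07), and the pairs gave 1.69 and 1.66. Leaving out 1 library at a time gave 1.66 to 1.74. That of TALDO1 was 0.74 ± 0.12 (SE, limma adjusted p = 0.000576), and the pairs gave 0.98 (replicates 1 and 2) and 0.46 (replicates 3 and 4), so that it stayed under 1.5-fold within replicates 3 and 4. ME1 rose by 0.24 ± 0.08 (SE, limma adjusted p = 0.0331) and CAT fell by 0.20 ± 0.07 (SE, limma adjusted p = 0.0297). Both were lost with some libraries left out or with the means of the pairs as samples, with limma adjusted p without a library up to 0.0909 for ME1 (LPS + PB1 replicates 1, 2 and 4 and PB1 replicates 1, 2 and 3 each ended it) and up to 0.085 for CAT (LPS + PB1 replicates 1 and 2 and PB1 replicates 1, 3 and 4 each ended it). NFE2L2, at 0.17 (95% confidence interval -0.05 to 0.40), and SOD1, at -0.08 (-0.26 to 0.11), did not pass. For NFE2L2 the pairs differed, at 0.31 (replicates 1 and 2) and -0.01 (replicates 3 and 4). In a fit of replicates 1 and 2 alone it rose by 0.33 (limma adjusted p = 0.000852). Of the 6 genes, 3 rose and 1 fell, where 49.5% of 4518 transcripts passed, and 2 were differentially expressed, where 14.5% of all transcripts were so upward and 14.9% downward. LPS + PB1 and PB1 libraries did not overlap for 4 genes, TXNRD1, TALDO1, ME1 and CAT, as for 47.0% of all transcripts. The ME1 margin was within counting error, at 60.4 in the lowest LPS + PB1 library and 57.7 in the highest PB1 library. The median over the 6 genes was 0.21, beside -0.01 over all transcripts.

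Whether the change after LPS differed with and without PB1 was tested as the interaction of the 2 agents over all 16 libraries. It passed for 3 of the 6 genes, and for 45.2% of 4651 transcripts. For TXNRD1 the change after LPS was larger with PB1 by 0.93 on the log2 scale (SE 0.20, limma adjusted p = 0.00123), and the pairs gave 1.44 (replicates 1 and 2) and 0.47 (replicates 3 and 4). For TALDO1 it was larger by 0.40 ± 0.15 (SE, limma adjusted p = 0.0375), and the pairs gave 0.62 and 0.22, and this was lost when any of 10 of the 16 libraries was left out (LPS replicates 1, 2 and 4, LPS + PB1 replicates 1 and 2, PB1 replicates 1, 2 and 3, and CTR replicates 3 and 4), with limma adjusted p up to 0.0793. For SOD1 the interaction was -0.48 ± 0.10 (SE, limma adjusted p = 0.000831), and the pairs gave -0.47 and -0.45, so that its change with both agents was below the sum of its changes with each alone on the log2 scale. With the means of the pairs as samples none of the 3 passed, with limma adjusted p = 0.0716 for TXNRD1, 0.193 for TALDO1 and 0.0698 for SOD1. NFE2L2 had 0.24 (95% confidence interval -0.03 to 0.52), ME1 0.37 (-0.08 to 0.83) and CAT -0.33 (-0.63 to -0.04, limma adjusted p = 0.0622). For NFE2L2 the pairs gave 0.26 and 0.27, and it passed with replicates 1 and 2 alone (limma adjusted p = 0.0149). CAT passed with the replicate number as a block (limma adjusted p = 0.0254), and without LPS replicate 1, LPS replicate 2 or CTR replicate 4, but not with the means of the pairs as samples (limma adjusted p = 0.36), while ME1 passed without LPS replicate 2 (limma adjusted p = 0.0302). With replicates 3 and 4 alone CAT and ME1 passed, at -0.46 and 0.66 (limma adjusted p = 0.00691 and 0.00707), and TALDO1 did not (limma adjusted p = 0.349).

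The 6 genes belong to lists of 101 NRF2 control, antioxidant and detoxification genes, of which 19 were measured, 13 of them beyond the 6 described. The remaining listed genes may lie among the 4790 predicted accessions, which were given no symbol. Their absence here therefore does not mean that they were not read. FTL, a ferritin chain, had at most 16 reads and was not tested. Of the other 12, 2 were differentially expressed upward and 1 downward in LPS/CTR, 0 and 1 in PB1/CTR, 1 and 0 in LPS + PB1/CTR, 1 and 0 in LPS + PB1/LPS, and 3 and 0 in LPS + PB1/PB1. Over all transcripts the shares upward and downward were 9.97% and 6.82% in LPS/CTR, 10.5% and 10.4% in PB1/CTR, 9.17% and 8.52% in LPS + PB1/CTR, 7.37% and 10.2% in LPS + PB1/LPS, and 14.5% and 14.9% in LPS + PB1/PB1, and the counts are read against these shares as a description only. Their median log2 fold change was 0.06 in LPS/CTR, -0.03 in PB1/CTR, 0.21 in LPS + PB1/CTR, 0.10 in LPS + PB1/LPS and 0.31 in LPS + PB1/PB1, beside medians between -0.01 and 0.01 over all transcripts. The interaction passed for 3 of these 12 genes, PRDX6, MAFK and NFE2L1, where it passed for 45.2% of all transcripts tested. The glutathione genes of the lists are covered by GSTZ1 alone.

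Among the peroxide-removing enzymes, PRDX6, a peroxiredoxin that also reduces lipid peroxides, was lower after either agent alone. Its normalized signal was 656, 693, 377 and 417 in LPS + PB1, 386, 377, 341 and 336 in LPS, 385, 361, 373 and 372 in PB1, and 726, 715, 660 and 703 in CTR. Its log2 fold change was -0.93 in LPS/CTR (SE 0.08, limma adjusted p = 1.16e-05) and -0.91 in PB1/CTR (SE 0.06, limma adjusted p = 2.24e-07). With both agents, replicates 1 and 2 lay near CTR and replicates 3 and 4 near the single agents, so that LPS + PB1/CTR gave -0.10 and -0.78 within the pairs. In LPS + PB1/PB1 PRDX6 rose by 0.495 (limma adjusted p = 0.0417), and the pairs gave 0.855 and 0.089. Its interaction was 1.42 ± 0.21 (SE, limma adjusted p = 4.85e-05).

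Among the partners of NFE2L2, MAFK, a small MAF protein that pairs with it on DNA, was higher in LPS + PB1 than in LPS. Its level was 86.9, 77.4, 74.5 and 64.2 in LPS + PB1, 43.8, 53.9, 45.8 and 42.6 in LPS, 54.5, 58.0, 57.9 and 62.5 in PB1, and 60.6, 61.6, 75.7 and 65.7 in CTR. The log2 fold change in LPS + PB1/LPS was 0.69 ± 0.11 (SE, limma adjusted p = 0.0019), and the pairs gave 0.75 and 0.65. It did not pass with the means of the pairs as samples (limma adjusted p = 0.0874). MAFK fell in LPS/CTR, at -0.465 (SE 0.10, limma adjusted p = 0.00528). In LPS + PB1/CTR it had 0.23 and did not pass (limma adjusted p = 0.131). In LPS + PB1/PB1 MAFK rose by 0.395 (SE 0.10, limma adjusted p = 0.00936). The interaction was 0.86 (limma adjusted p = 0.000159). NFE2L1, a relative of NFE2L2 that controls proteasome genes, had 1216, 1139, 1424 and 1275 in LPS + PB1, 804, 910, 958 and 946 in LPS, 688, 674, 671 and 712 in PB1, and 836, 831, 937 and 959 in CTR. It was differentially expressed in LPS + PB1/PB1, at 0.90 ± 0.09 (SE, limma adjusted p = 1.36e-05), and its interaction was 0.84 (limma adjusted p = 2.06e-05). NFE2L1 also fell in PB1/CTR, at -0.37 (limma adjusted p = 0.000624). It rose in LPS + PB1/CTR and LPS + PB1/LPS, at 0.54 and 0.47 (limma adjusted p = 0.00238 and 0.00587). Every LPS + PB1 library was above every library of the other groups for NFE2L1, as for TXNRD1 and TALDO1. For TALDO1 the margin was within counting error, at 285.5 in the lowest LPS + PB1 library and 281.7 in the highest LPS library. How many of all transcripts have a group wholly apart from the others was not counted, here or for CAT and SOD1 above.

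HMOX1, which degrades heme, FTH1, the ferritin heavy chain that stores iron, and GSTZ1, a glutathione transferase, were differentially expressed in LPS/CTR (HMOX1 and FTH1), LPS + PB1/CTR (GSTZ1) and LPS + PB1/PB1 (HMOX1 and GSTZ1). All 3 differed between pairs of replicates. HMOX1 had 253, 288, 543 and 549 in LPS + PB1, 329, 350, 414 and 378 in LPS, 235, 237, 219 and 237 in PB1, and 133, 124, 293 and 313 in CTR. Its log2 fold change in LPS/CTR was 0.93 ± 0.28 (SE, limma adjusted p = 0.0296), and the pairs gave 1.40 (replicates 1 and 2) and 0.39 (replicates 3 and 4). Without LPS replicate 3 or 4, or CTR replicate 1 or 2, neither HMOX1 nor FTH1 passed in LPS/CTR, with values of 0.72 to 0.91 for HMOX1 and 0.79 to 0.83 for FTH1. FTH1 had 0.95 in that comparison (SE 0.26, limma adjusted p = 0.0201), with 3873, 3626, 8434 and 7718 in LPS + PB1, 4838, 5376, 9350 and 9046 in LPS, 3571 to 4383 in PB1, and 2861, 2842, 4336 and 4999 in CTR. In LPS + PB1/PB1, HMOX1 had 0.75 ± 0.24 (SE, limma adjusted p = 0.0265) and did not pass without LPS + PB1 replicate 3 or 4 or any of the PB1 replicates, at 0.57 to 0.76. Its pairs there gave 0.19 (replicates 1 and 2) and 1.26 (replicates 3 and 4). GSTZ1, with 41 to 141 reads per library, had 0.70 in LPS + PB1/CTR (limma adjusted p = 0.0325), which did not pass without LPS + PB1 replicate 3 or 4 or CTR replicate 1, 2 or 3, at 0.57 to 0.68, and 0.71 in LPS + PB1/PB1 (limma adjusted p = 0.0106). None of these calls passed with the means of the pairs as samples, with limma adjusted p of 0.0925 to 0.248.

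**Figure D5:**
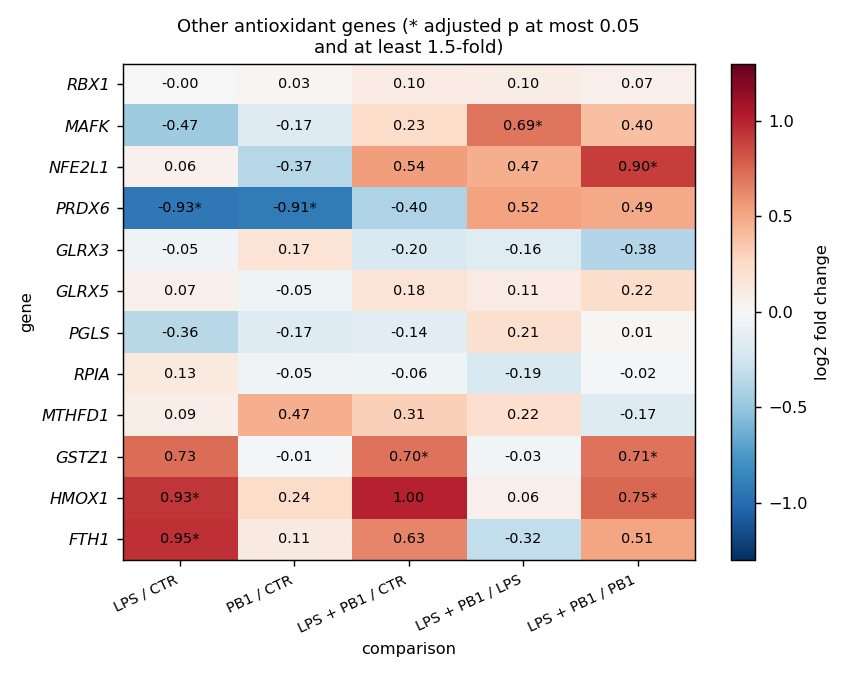
Log2 fold change (colour and number) of the 12 other tested NRF2 pathway and antioxidant genes (rows) in the 5 comparisons (columns). A star marks a limma adjusted p of at most 0.05 with at least a 1.5-fold difference. PRDX6 is lower in LPS and in PB1 than in CTR, at -0.93 and -0.91, and MAFK carries the only star in LPS + PB1/LPS, at 0.69.

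The pattern of each gene over the 16 libraries was also compared with that of 1690 other named transcripts, as the root-mean-square difference of log2 signal after each was centred on its mean. TXNRD1 varied by 0.67 on this scale, and the nearest transcripts were CAP2, at 0.26, and SLC30A1, a zinc exporter, at 0.30. CAP2 averaged 79.8 in LPS + PB1, 51.7 in LPS, 31.4 in PB1 and 39.6 in CTR, the same order of groups as TXNRD1. TALDO1 varied by 0.31 and was nearest to PACSIN2, at 0.14, and CDC37, a kinase co-chaperone of HSP90, at 0.16. CAT varied by 0.19 and was nearest to TIMP2, a metalloproteinase inhibitor, at 0.09, and AKAP8L, at 0.13. NFE2L2 varied by 0.18 and was nearest to CPT2, at 0.08, and MRPL3, at 0.09. For ME1, which varied by 0.23, ALYREF and SUPT4H1 were nearest at 0.17 each, and for SOD1, which varied by 0.16, CASC4 and RPLP1 were nearest at 0.12 each. For ME1 and SOD1 the distance to the nearest transcript was therefore most of the gene's own variation.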

How the data were processed

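RNA from 16 HD11 libraries was sequenced from single reads. Per the study's methods and the submitters' processing notes, the authors aligned the reads by HISAT2 (build GRCg7b) and used HTSeq for counting. The deposited values are a scaled signal. In each library they are whole multiples of a step of 2.97 to 5.53, rounded down, and equal the read number plus 1 times that step. How the authors chose the step, and how reads shared by transcripts of a gene were counted, are not given in the sources used here. Allowing for the rounding, 100% of values fell on the step in every library, and reads were recovered from it (4173989 to 4414942 per library). Without that allowance most libraries do not give whole reads, so the recovered reads served for the filter, the counting errors and the comparison of replicates, and count tests (the edgeR quasi-likelihood test and DESeq2, the authors' tool) were not run.

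Accessions were matched to symbols and GRCg7b coordinates in a RefSeq table, which matched 1697 of 1702 curated and 0 of 4790 predicted accessions. Transcripts were kept by edgeR's filterByExpr (version 4.0.16, minimum count 10) on recovered reads, values were scaled to 1e+06 per library with TMM factors, and log2 values without a pseudocount were fitted with limma 3.58.1 (eBayes, trended prior) in R 4.3.3 for 2 groups at a time, with Benjamini-Hochberg adjustment over all transcripts tested. The interaction of LPS and PB1 was fitted over all 16 libraries. Levels were normalized over all 16 libraries and fits within each comparison, so ratios of levels differ slightly from fitted fold changes. The test was checked on simulated data for LPS/CTR, drawn without pairs of replicates, so the check does not cover the spread between pairs.

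The 6 genes were given by accession, and both they and the lists of antioxidant and marker genes were chosen with earlier results of these data known. A further marker on the macrophage list is not reported here, so that list is not given whole. Named from the antioxidant lists were genes differentially expressed in at least 3 comparisons and, for each comparison, the 2 that changed most each way, and for likeness the 2 nearest transcripts of each gene. GSTZ1 in LPS + PB1 against PB1 is named beyond that rule. Alternatives were RLE size factors, no filter, a further pseudocount of 1, the replicate number as a block, 1 fit of all libraries, each library left out, each pair of replicates alone, their means, and no limit on the fold change. Residuals of libraries sharing a number, taken from the mean of each group, correlated at 0.49 to 0.60 between LPS + PB1 and LPS. This was over 0.1 for every number, but libraries of different number were not compared across the groups. Whether single numbers or only the pairs of replicates go together is thus not shown, and no label says it. A search for antioxidant response elements near the 6 genes was not run, as no sequence was at hand.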

Additional observations from a re-analysis of the deposited data

Results flagged for a closer look

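For 3 of the 6 genes the change after LPS differed between cells with and without PB1, by the interaction term over all 16 libraries. That term passed for 45.2% of 4651 transcripts. With the means of the pairs as samples it passed for none of the 3 (limma adjusted p = 0.0716 for TXNRD1, 0.193 for TALDO1 and 0.0698 for SOD1). For TALDO1 it was also lost when any of 10 of the 16 libraries was left out. For TXNRD1 the log2 change after LPS was 1.70 with PB1 and 0.76 without, and the difference in the fit over all libraries was 0.935 (limma adjusted p = 0.00123). For TALDO1 it was 0.74 with PB1 and 0.34 without, a difference of 0.398 (limma adjusted p = 0.0375). For SOD1 it was -0.08 with PB1 and 0.40 without, a difference of -0.482 (limma adjusted p = 0.000831). No library of any of the 6 genes stood apart from the other 3 of its group by Dixon's test. That test looks for a lone library, so it cannot assess groups split by replicate pair, such as TXNRD1 and ME1 in LPS.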

How the results depend on the processing

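The counts of differentially expressed transcripts were 758 in LPS/CTR, 937 in PB1/CTR, 795 in LPS + PB1/CTR, 800 in LPS + PB1/LPS and 1327 in LPS + PB1/PB1, and 2100 transcripts passed the interaction. With the means of the pairs of replicates as samples the count was 371 in LPS/CTR, 882 in PB1/CTR, 291 in LPS + PB1/CTR, 128 in LPS + PB1/LPS, 1039 in LPS + PB1/PB1 and 949 for the interaction. With no limit on the fold change it was 1433 in LPS/CTR, 1960 in PB1/CTR, 1379 in LPS + PB1/CTR, 1455 in LPS + PB1/LPS and 2235 in LPS + PB1/PB1. Replicates 3 and 4 alone gave 1253 in LPS + PB1/CTR. With each library left out in turn the count was 689 to 829 in LPS/CTR, 939 to 976 in PB1/CTR, 716 to 893 in LPS + PB1/CTR, 738 to 800 in LPS + PB1/LPS, 1264 to 1377 in LPS + PB1/PB1 and 1890 to 2135 for the interaction. The replicate number as a block gave 926 in LPS + PB1/LPS, where deviations of libraries with the same number correlated at 0.49 to 0.6. Whether single numbers or only the pairs of replicates go together there is not shown. The block gave 716 in LPS/CTR, 945 in PB1/CTR, 781 in LPS + PB1/CTR, 1316 in LPS + PB1/PB1 and 2137 for the interaction. Deviations of libraries with the same number correlated at -0.21 to -0.06 in LPS/CTR, 0.03 to 0.36 in PB1/CTR, -0.09 to 0.07 in LPS + PB1/CTR and -0.13 to 0.04 in LPS + PB1/PB1. In none of these was every number over 0.1, though in PB1/CTR replicates 1, 2 and 4 were, at 0.15, 0.17 and 0.36. Under the block CAT passed the interaction, and no other of the 6 genes changed its differential expression or its interaction call. On adjusted p alone, the block ended the rise of ME1 (limma adjusted p = 0.0879) and the fall of CAT (0.0822) in LPS + PB1/PB1 and the rise of SOD1 in LPS + PB1/CTR (0.0875), and TALDO1 passed in PB1/CTR (0.0419) and LPS + PB1/LPS (0.0396).

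Of 648 values of the 6 genes under the alternatives, 594 kept their direction and their call (differential expression, or the interaction passing), 26 gained a call, 11 of them only because the limit on the fold change was dropped, 17 lost one and 11 changed direction. On adjusted p alone, of the 618 values with that limit kept, 55 no longer passed and 24 newly passed. None of those that changed direction was differentially expressed. Replicates 1 and 2 alone gave log2 values of 0.0715 (LPS/CTR), 0.0669 (LPS + PB1/CTR) and 0.00483 (LPS + PB1/LPS) for NFE2L2, 0.239 (LPS/CTR) and -0.0624 (LPS + PB1/LPS) for ME1, and -0.0178 (LPS/CTR) for CAT. Replicates 3 and 4 alone gave -0.0144 for ME1 (LPS + PB1/CTR) and -0.109 for CAT (LPS + PB1/LPS). With each library left out in turn ME1 ranged from -0.284 to 0.0104 in LPS/CTR, above 0 only without LPS replicate 3, and CAT from -0.00861 to 0.15 in LPS + PB1/LPS, below 0 without LPS replicate 1 or 2. The cause was not tested. The other antioxidant genes were followed under the alternatives only where the main fit had called them, so none could gain a call. Of those 222 values, 190 kept their call and 32 lost it. The edgeR and DESeq2 count tests were not run. RLE size factors moved the median of all transcripts by less than 0.1 in every comparison. With at most 312 reads of ME1 and 141 of GSTZ1 per library, small changes of these genes were at the limit of the depth.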
